A study of Mus musculus with 24 samples.

Results

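The Müller glia identity genes described here were Rlbp1, Car2, Ttyh1, Dbi, Glul, Vim, Apoe, Clu, Aqp4 and S100a16. They were chosen by name, as the rows of the count tables whose Ensembl identifier carries one of these symbols, and they make up 10 of the 126602 counted features, of which 46603 are annotated genes. All 10 were present and all 10 passed the filter on low counts. Total RNA was sequenced from 24 single mouse retinal organoids (MROs), retinal tissue grown in culture from pluripotent stem cells. Of these, 6 were taken on D20, 6 on D22, 6 on D25 and 6 on D30 of culture. The organoids came from wildtype E14Tg2a mouse embryonic stem cells, were made by the trisection protocol, in which young organoids are cut into pieces, and were kept in medium with serum from the cutting on, with the synthetic retinoid EC23 added for the first few days of that time. The labels call the genotype of all 4 groups Control, and only water, as solvent, was added. The sample names mark the D22, D25 and D30 organoids as controls and carry no such mark at D20, the day for which the labels state that controls alone were taken. Apart from this mark, age is the one difference between the groups that the labels give. They stem from a single cell line and from 1 independent experiment, so the spread given below is that between organoids of 1 differentiation and the p-values measure only that spread.

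Müller glia are the main glial cells of the retina. They arise late from the same progenitors as the retinal neurons, span the whole width of the tissue, and take up glutamate, potassium and water released by neurons, supply glutamine and lipids, and take part in recycling the retinoids of the visual pigments. Several of their genes are shared with other cells: progenitors express Vim, and astrocytes of the brain and optic nerve express Glul, Apoe, Clu and Aqp4. An RNA level in a whole organoid does not tell fewer cells of a type from less RNA per cell, and this holds for every value below.

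The libraries held between 13634846 and 19477108 reads counted on a feature, of which 12.94 to 16.75% fell on loci that the authors assembled from the reads and the rest on annotated genes. Organoids of the same day differed by more than sampling noise in every pair (lowest chi-square per degree of freedom 5.997), so each was counted as a separate sample. Levels are given as normalized CPM, the counts of a gene relative to all counted reads of its library after the TMM scaling of edgeR, and levels of different genes are compared only as normalized CPM per kilobase of exon. A gene was called higher or lower where the quasi-likelihood test of edgeR gave an adjusted p below 0.01 (Benjamini-Hochberg over 46949 tested features).

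All 10 genes differed among the 4 days (27.2% of tested features did), and none was lower in any comparison of a later with an earlier day. Of all tested features, 0.285% were lower at D22 than at D20, 2.19% from D22 to D25, 1.75% from D25 to D30, 13% from D20 to D30, 6.61% from D20 to D25 and 10.5% from D22 to D30. Car2 rose in the step from D20 to D22, Clu, Car2 and S100a16 rose from D22 to D25, and 8 genes rose from D25 to D30. Between D20 and D30 the ratio of the mean levels ran from 1.36 for Glul, which was not called, to 72.3 for S100a16 (113 without D20 organoid 6). The plot of the levels by day shows every organoid.

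**Figure D1:**
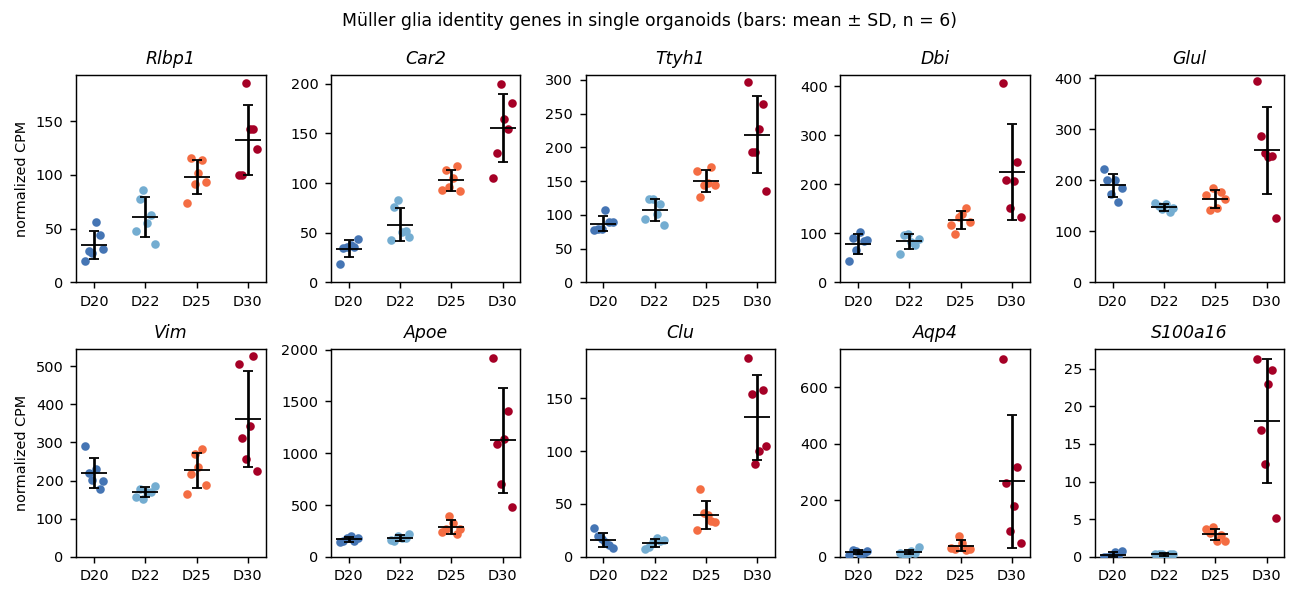
Normalized CPM (linear axis, a separate scale for each gene) of the 10 genes at D20, D22, D25 and D30; each point is 1 organoid and the bars give the mean ± SD of 6 organoids. The mean levels of Rlbp1 go from 34.7 to 60.8, 98.4 and 132 and those of Car2 from 34.1 to 58.2, 103 and 155, though no single step of Rlbp1 and not the last step of Car2 was called. Apoe, Aqp4, Clu and S100a16 were not called between D20 and D22 and reach their highest levels at D30, where the points of Aqp4 spread from 49.9 to 701.

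The upstream sequences of Rlbp1, Apoe and S100a16 are shown as examples chosen by their levels. The mean of Rlbp1 rose at each day, Apoe had its largest step from D25 to D30, and S100a16 was near absent at the start. No gene passed the tests, given below, of whether a step differed from the step before it. They were read from RefSeq promoter records of GRCm38.p6, written 5′ to 3′ on the strand of the gene and ending before its annotated exons. An entry was found for 7 of the 10 genes, and none for Clu, Aqp4 and Car2. Capitals mark matches on either strand to the core letters of motifs of factors active in Müller glia or the retina.

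Rlbp1 (chr7:79387049-79387277, minus strand): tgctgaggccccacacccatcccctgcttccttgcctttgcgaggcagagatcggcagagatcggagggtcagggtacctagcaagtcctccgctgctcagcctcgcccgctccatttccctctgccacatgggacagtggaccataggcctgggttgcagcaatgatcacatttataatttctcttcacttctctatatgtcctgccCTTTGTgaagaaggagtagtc

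Apoe (chr7:19699189-19699438, minus strand): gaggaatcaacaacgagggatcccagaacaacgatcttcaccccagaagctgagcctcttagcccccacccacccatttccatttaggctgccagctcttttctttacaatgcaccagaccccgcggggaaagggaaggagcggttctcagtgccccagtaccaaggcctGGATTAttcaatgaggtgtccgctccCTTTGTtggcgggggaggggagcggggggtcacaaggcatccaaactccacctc

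S100a16 (chr3:90537004-90537253, plus strand): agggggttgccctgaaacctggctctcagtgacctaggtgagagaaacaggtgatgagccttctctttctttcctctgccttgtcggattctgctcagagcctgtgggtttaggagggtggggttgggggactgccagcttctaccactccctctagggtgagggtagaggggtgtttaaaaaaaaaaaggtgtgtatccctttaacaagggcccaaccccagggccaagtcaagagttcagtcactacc

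The letters searched were ACAAAG (SOX factors), TTGGCA (NFI), TAATCC (OTX and CRX), TTCCCA (RBPJ) and TAATTA (LHX2), with no overlap among the matches. The SOX letters occurred in the upstream sequences of Rlbp1 and Apoe, starting 42 and 54 bases before the RefSeq start, and the OTX and CRX letters in that of Apoe, 80 bases before it. The other searches found no match in the 7 genes. For Vim the searched window lay wholly within its own annotated exons, so it holds no sequence upstream of them. Among 32851 mouse promoters of 250 upstream bases, 16.5% held the SOX letters, 12.3% the NFI, 6.25% the OTX and CRX, 21.6% the RBPJ and 4.84% the LHX2 letters. A match of this kind is a description of the sequence and not a bound site.

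Rlbp1 (ENSMUSG00000039194, chr7:79374870-79387048, GRCm38, minus strand, protein coding) encodes the cellular retinaldehyde-binding protein, which carries visual cycle retinoids in Müller glia and pigment epithelium. Its level ran from 19.5 to 56.5 normalized CPM at D20 (median 30.3, mean 34.7 ± 13.4, SD, n = 6) and from 35.7 to 86.1 at D22 (median 58.8, mean 60.8 ± 18.7). At D25 it ran from 73.6 to 116 (median 97.7, mean 98.4 ± 15.8) and at D30 from 99.9 to 185 (median 134, mean 132 ± 31.9). Neighbouring days overlapped, whereas every D25 and every D30 organoid lay above every D20 organoid. Rlbp1 was higher at D25 than at D20 (log2 fold change 1.5 ± 0.21, SE, adjusted p = 2.126e-06) and higher at D30 than at D20 (log2 fold change 1.93 ± 0.21, adjusted p = 1.135e-08). No single step passed the threshold: the log2 fold change was 0.81 ± 0.21 from D20 to D22 (adjusted p = 0.0176), 0.69 ± 0.20 in the next step (adjusted p = 0.0233) and 0.43 ± 0.20 from D25 to D30 (adjusted p = 0.2506). The D22 step was past the threshold without D20 organoid 4 or without D22 organoid 6 (adjusted p down to 0.002861) and the D25 step without D22 organoid 3 (adjusted p = 0.008436). With DESeq2 both steps were called (adjusted p = 0.004852 and 0.007083).

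Car2 (ENSMUSG00000027562, chr3:14886273-14900770, plus strand, protein coding) encodes carbonic anhydrase 2, the cytosolic enzyme that turns carbon dioxide into bicarbonate. Its level lay between 18.3 and 43.5 normalized CPM at D20 (median 35.7, mean 34.1 ± 8.39, SD, n = 6), between 42.2 and 82.5 at D22 (median 51.3, mean 58.2 ± 16.8), between 91.6 and 117 at D25 (median 100, mean 103 ± 10.7) and between 105 and 200 at D30 (median 159, mean 155 ± 34.2). Only the highest D20 organoid reached into the D22 range, and D22 and D25 did not overlap. Car2 rose from D20 to D22 (log2 fold change 0.77 ± 0.17, adjusted p = 0.006844), rose again from D22 to D25 (0.82 ± 0.17, adjusted p = 0.001763), and in the last step had a log2 fold change of 0.60 ± 0.17 that was not called (adjusted p = 0.02614). The D22 call was lost without any of D20 organoids 1, 2, 3, 4 and 5, D22 organoids 2, 3, 4 and 5 or D25 organoid 3 (adjusted p up to 0.03408), and the D30 step was past the threshold without D20 organoid 1 or D30 organoid 1 (adjusted p down to 0.006744) and with DESeq2 (adjusted p = 0.005801). Without D20 organoid 4 Rlbp1 was called from D20 to D22 and Car2 was not. Over the whole interval Car2 rose 4.55-fold in mean level (log2 fold change 2.19 ± 0.18, adjusted p = 3.164e-11), with all D30 above all D20 organoids.

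Ttyh1 (ENSMUSG00000030428, chr7:4119408-4136708, plus strand, protein coding) encodes tweety family member 1, a membrane protein of glia and neural stem cells. The levels were 77.3 to 107 normalized CPM at D20 (median 84.5, mean 87.1 ± 11.4, SD, n = 6), 84.6 to 123 at D22 (median 109, mean 107 ± 16.3), 126 to 171 at D25 (median 146, mean 150 ± 16.3) and 136 to 297 at D30 (median 211, mean 219 ± 57.5). All D25 organoids lay above all D22 organoids, yet the step had an adjusted p of 0.01618 (log2 fold change 0.49 ± 0.13); without D30 organoid 1 or 6 it passed the threshold (adjusted p down to 0.004502). From D25 to D30 the gene rose by a log2 fold change of 0.55 ± 0.13 (adjusted p = 0.009117), a call that was lost without any of D20 organoids 2, 3 and 6, D25 organoids 2, 3, 4, 5 and 6 or D30 organoids 1, 4 and 5 (adjusted p up to 0.03828). Over the whole interval Ttyh1 rose 2.52-fold (log2 fold change 1.33 ± 0.14, adjusted p = 3.603e-09). Its exons share 424 bases with opposite-strand genes, 9430041J12Rik and D030047H15Rik, and since the sources used here do not state whether counting used the strand, reads from these bases cannot be assigned with certainty.

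Dbi (ENSMUSG00000026385, chr1:120113280-120121078, minus strand, protein coding) encodes the acyl-CoA-binding protein, also known as diazepam binding inhibitor. Its level ran from 42.9 to 102 normalized CPM at D20 (median 85.2, mean 78.4 ± 21.0, SD, n = 6), from 58.2 to 99.1 at D22 (median 85.8, mean 83.8 ± 15.2), from 99.8 to 151 at D25 (median 129, mean 127 ± 17.8) and from 134 to 406 at D30 (median 208, mean 225 ± 97.4). D20 and D22 covered the same range and all D25 organoids lay just above all D22 organoids. The D25 step was not called (log2 fold change 0.61 ± 0.20, adjusted p = 0.04394), while the D30 step was (0.82 ± 0.20, adjusted p = 0.008128), as was D25 against D20 (0.70 ± 0.20, adjusted p = 0.009163). Both calls depended on which organoids were included: the D30 step was lost without any of the D25 organoids or D30 organoids 1, 2, 4 and 5 (adjusted p up to 0.04285), and D25 against D20 was lost in 17 of 24 fits, those without D20 organoids 1, 2, 3, 5 and 6, D22 organoids 2, 4, 5 and 6, D25 organoids 1, 3, 4, 5 and 6 or D30 organoids 2, 4 and 5 (adjusted p up to 0.03433). The rise over the whole interval, 2.87-fold in mean level, did not overlap between D20 and D30 (log2 fold change 1.52 ± 0.20, adjusted p = 4.154e-07).

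Glul (ENSMUSG00000026473, chr1:153899944-153909723, plus strand, protein coding) encodes glutamine synthetase, with which glia turn glutamate taken up from synapses into glutamine. Per kilobase it ranked next below Apoe at D20, when its level was 158 to 223 normalized CPM (median 194, mean 191 ± 22.6, SD, n = 6). At D22 the levels were 138 to 156 (median 147, mean 147 ± 6.61), at D25 141 to 185 (median 168, mean 164 ± 17.6) and at D30 127 to 394 (median 250, mean 259 ± 85.5). All 6 D22 organoids lay below all 6 D20 organoids, the only complete separation of these days among the 10 genes (0.965% of tested features had every D22 organoid below), and the test did not call it (log2 fold change -0.37 ± 0.14, adjusted p = 0.1497). Glul rose from D25 to D30 (0.66 ± 0.14, adjusted p = 0.003513), a call lost without D25 organoid 2, D25 organoid 4 or D30 organoid 1 (adjusted p up to 0.01554). D30 against D20 was not called (0.44 ± 0.14, adjusted p = 0.01552), with D30 organoid 6 below every D20 and D22 organoid, and without that organoid it was (adjusted p = 6.601e-05). It was also called with DESeq2 (0.51, adjusted p = 0.004835) and with the size factors of DESeq2 in edgeR (0.51, adjusted p = 0.007191). The exons of Glul share 116 bases with Mir8114 and Teddm2.

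Vim (ENSMUSG00000026728, chr2:13573927-13582826, plus strand, protein coding) encodes vimentin, the intermediate filament of progenitors, Müller glia and mesenchyme. The level was 178 to 291 normalized CPM at D20 (median 210, mean 220 ± 39.4, SD, n = 6), 152 to 186 at D22 (median 171, mean 170 ± 12.9), 164 to 282 at D25 (median 227, mean 226 ± 46.2) and 225 to 527 at D30 (median 327, mean 361 ± 127). The ranges of D20 and D25 overlapped widely (log2 fold change 0.04 ± 0.16, adjusted p = 0.887). Vim rose from D25 to D30 (0.67 ± 0.16, adjusted p = 0.007751), was higher at D30 than at D20 (0.72 ± 0.16, adjusted p = 0.0007082) and higher than at D22, where no organoid overlapped (1.09 ± 0.16, adjusted p = 4.763e-06). The call from D25 to D30 was lost without any of D25 organoids 1, 2, 4 and 6 or D30 organoids 1, 4 and 5 (adjusted p up to 0.03519).

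Apoe (ENSMUSG00000002985, chr7:19696109-19699188, minus strand, protein coding) encodes apolipoprotein E, the main lipid carrier secreted by glia. Levels were 145 to 202 normalized CPM at D20 (median 164, mean 167 ± 22.9, SD, n = 6), 153 to 223 at D22 (median 182, mean 182 ± 25.5), 224 to 395 at D25 (median 271, mean 288 ± 64.2) and 484 to 1920 at D30 (median 1120, mean 1130 ± 512). D20 and D22 overlapped, whereas all D25 organoids lay above all D22 organoids and all D30 organoids above all D25 organoids. Apoe rose 3.91-fold in mean level from D25 to D30 (log2 fold change 1.97 ± 0.20, adjusted p = 7.933e-08), while the step before it was not called (0.66 ± 0.20, adjusted p = 0.02625). The D25 step was called without D30 organoid 1 or 6 (adjusted p down to 0.005049), and the rise from D20 to D25 (0.79 ± 0.20, adjusted p = 0.003497) was lost without D20 organoid 1, D20 organoid 5 or D25 organoid 3 (adjusted p up to 0.01806).

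Clu (ENSMUSG00000022037, chr14:65968483-65981547, plus strand, protein coding) encodes clusterin, a secreted chaperone that is also an apolipoprotein. It ran from 8 to 26.8 normalized CPM at D20 (median 15.2, mean 16 ± 6.75, SD, n = 6) and from 7.60 to 17.5 at D22 (median 14.7, mean 13.4 ± 3.92). It then reached 25.6 to 64.0 at D25 (median 36.6, mean 39.5 ± 13.3) and 87.5 to 188 at D30 (median 130, mean 132 ± 40.2). All D25 organoids lay above all D22 organoids and all D30 organoids above all D25 organoids. Both of these steps were called, with log2 fold changes of 1.56 ± 0.25 (adjusted p = 0.0001113) and 1.74 ± 0.24 (adjusted p = 1.463e-05), and the mean level rose 2.96-fold and 3.35-fold. Clu was also higher at D25 than at D20 (1.3 ± 0.25, adjusted p = 0.0001795) and at D30 than at D20 (3.04 ± 0.26, adjusted p = 7.835e-11), where it did not overlap.

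Aqp4 (ENSMUSG00000024411, chr18:15389496-15410982, minus strand, protein coding) encodes the water channel of the Müller glia endfeet. It was counted 113 to 361 times per organoid at D20 and 900 to 12275 times at D30. The level lay between 7.90 and 24.2 normalized CPM at D20 (median 16, mean 16.1 ± 6.77, SD, n = 6), between 11 and 33.5 at D22 (median 13.2, mean 16.9 ± 8.62), between 24.8 and 74.3 at D25 (median 30.4, mean 39.2 ± 18.8) and between 49.9 and 701 at D30 (median 220, mean 267 ± 235). The D25 organoids lay above all D20 organoids without a call (log2 fold change 1.28 ± 0.42, adjusted p = 0.02351); without D30 organoid 1 or 6 this comparison was called (adjusted p down to 0.007863). Aqp4 rose from D25 to D30 (2.77 ± 0.43, adjusted p = 5.974e-05) and was 16.6-fold higher in mean level at D30 than at D20 (4.05 ± 0.46, adjusted p = 2.256e-08).

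S100a16 (ENSMUSG00000074457, chr3:90537254-90543151, plus strand, protein coding) encodes a small calcium-binding protein of the S100 family that is abundant in astrocytes and Müller glia. It was near the limit of detection at the start, with 0 to 11 reads per organoid at D20, where 3 of 6 organoids had no read, and 0 to 6 reads at D22, where 1 organoid had none. A count of 0 allows up to 0.2124 CPM in the D20 organoid with 14123047 counted reads. From 0.250 ± 0.339 normalized CPM at D20 (SD, n = 6) and 0.315 ± 0.161 at D22, the mean level reached 2.98 ± 0.762 at D25 (2.1 to 3.91, median 3.02) and 18.1 ± 8.24 at D30 (5.16 to 26.3, median 19.9). All D25 organoids lay above all D22 organoids and all D30 organoids above all D25 organoids. S100a16 rose in both of these steps (log2 fold change 3.21 ± 0.53, adjusted p = 0.0001588, and 2.60 ± 0.42, adjusted p = 0.0001171). Its mean level was 72.3-fold higher at D30 than at D20 (log2 fold change 6.09 ± 0.55, adjusted p = 2.629e-10), a ratio whose lower term rests on at most 11 reads per organoid. Without D20 organoid 6, which held those 11 reads, the ratio was 113 and the log2 fold change 6.72 (adjusted p = 4.487e-10).

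Compared per kilobase of exon, Apoe was the highest and S100a16 the lowest of the 10 genes on all 4 days. At D20 the mean levels were 78.1 ± 10.7 normalized CPM per kilobase for Apoe (SD, n = 6), 57.3 ± 6.81 for Glul, 55.2 ± 14.8 for Dbi and 46.3 ± 8.31 for Vim. Car2 (14.1 ± 3.46), Ttyh1 (13.6 ± 1.78) and Rlbp1 (11.8 ± 4.53) followed closely together, below them came Clu (4.66 ± 1.96) and Aqp4 (2.58 ± 1.09), and S100a16 was at 0.155 ± 0.210. At D30 Apoe stood at 527 ± 239 and Dbi at 158 ± 68.5. Glul (77.9 ± 25.7), Vim (76.2 ± 26.8) and Car2 (64.2 ± 14.1) lay within their spread of each other, as did Rlbp1 (44.9 ± 10.8), Aqp4 (42.8 ± 37.7), Clu (38.4 ± 11.7) and Ttyh1 (34.3 ± 9.01). S100a16 remained the lowest at 11.2 ± 5.10.

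The steps between consecutive days asked when the genes moved. From D20 to D22, 1 of the 10 genes was called higher, Car2 (0.77, against 0.81 for Rlbp1, which was not called), and none was lower, beside 1.62% of tested features and 2.56% of tested annotated genes called higher; no gene had all D22 organoids above all D20 organoids (1.48% of tested features did). The median log2 fold change was 0.11 over the 10 genes and 0.02 over all features. From D22 to D25, 3 of 10 were higher (Clu, Car2 and S100a16) beside 3.08% of features and 7.33% of annotated genes, and 6 of 10, namely Clu, Apoe, Dbi, Ttyh1, Car2 and S100a16, had all D25 organoids above all D22 organoids beside 3.17%. The median log2 fold change was 0.68 over the genes and -0.05 over all features.

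From D25 to D30, 8 of 10 genes were higher, all except Rlbp1 and Car2, beside 1.76% of features and 4.55% of annotated genes. In 3 of them, Apoe, Clu and S100a16, no D30 organoid overlapped with D25 (2.14% of features had every D30 organoid above). The median log2 fold change of the 10 genes was 0.75, and that of all features -0.02. Calls for Dbi, Vim, Ttyh1 and Glul in this step lay close to the threshold and depended on single organoids, as given above, while those for Apoe, Clu, Aqp4 and S100a16 were made in each of the 24 fits that left out 1 organoid.

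**Figure D2:**
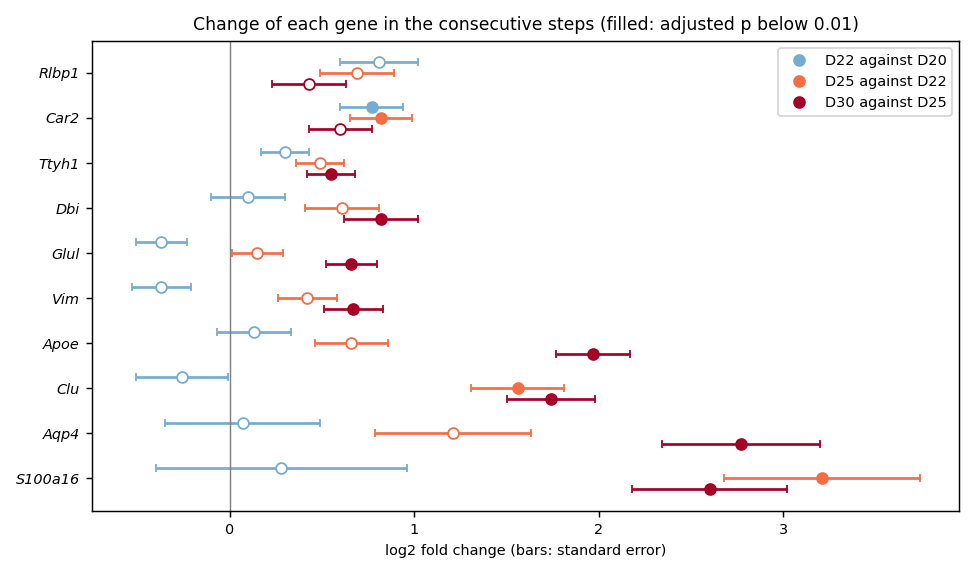
Log2 fold change (x axis) of each gene (y axis) in the 3 steps between consecutive days; bars give the standard error of the edgeR fit and filled points had an adjusted p below 0.01. The points of Apoe move from 0.13 to 0.66 to 1.97, those of Clu from -0.26 to 1.56 to 1.74, and those of Rlbp1 from 0.81 to 0.69 to 0.43.

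Whether a step differed from the step before it was tested as a contrast of contrasts. No gene passed in either test with edgeR or DESeq2. For D30 against D25 minus D25 against D22, 0 of 10 were called (0.0447% of features) and 2 of 10 had an unadjusted p below 0.05, Apoe (1.31 ± 0.35 on the log2 scale, adjusted p = 0.1945) and Aqp4 (1.55 ± 0.73, adjusted p = 0.6666). For D25 against D22 minus D22 against D20, 0 of 10 were called (0.0277% of features) and 4 of 10 had an unadjusted p below 0.05: Clu (1.83 ± 0.44, adjusted p = 0.06118), Vim (0.79 ± 0.29, adjusted p = 0.2145), S100a16 (2.93 ± 1.09, adjusted p = 0.2351) and Glul (0.52 ± 0.25, adjusted p = 0.3768). Rlbp1 and Car2 had values of -0.26 ± 0.35 and -0.22 ± 0.29 in the former contrast and -0.11 ± 0.35 and 0.05 ± 0.30 in the latter.

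Over the longer intervals, 9 of 10 genes were higher at D30 than at D20 (13.9% of features and 25.1% of annotated genes), all except Glul, which was called with DESeq2 and its size factors, and 8 of 10 had no overlap between these days (9.6% of features had every D30 organoid above), the exceptions being Glul and Vim. The median log2 fold change was 2.06 over the 10 genes and -0.04 over all features. From D20 to D25, 7 of 10 were higher (8.5% of features and 14.8% of annotated genes), all except Glul, Vim and Aqp4, and in 6 of 10 all D25 organoids lay above all D20 organoids (7.61% of features). From D22 to D30, 10 of 10 were higher (11% of features and 24% of annotated genes), in 9 of 10 without overlap (7.08% of features). These intervals share organoids with the steps above and are not further evidence.

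The spread among organoids of 1 day was widest at D30 for several of the genes. The highest Aqp4 level at D30 was 14 times the lowest, against 3.07 at D20, 3.03 at D22 and 2.99 at D25. The corresponding ratio at D30 was 3.98 for Apoe, 3.09 for Glul and 3.04 for Dbi, and on the earlier days it was at most 1.76 for Apoe, 1.40 for Glul and 2.38 for Dbi. For S100a16 it was 5.10 at D30 and could not be formed at D20 and D22, when organoids were at 0, and its SD on the log2 scale was 1.31 at D20 and 0.88 at D30. By contrast the ratio for Rlbp1 was 2.90 at D20 and 1.85 at D30, and for Clu 3.36 and 2.15.

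At D30 the same organoids stood at the ends for most genes. Organoid 1 was the highest of 6 for Apoe (1920 normalized CPM), Aqp4 (701), Glul (394), Dbi (406), Ttyh1 (297), Clu (188) and S100a16 (26.3), while for Vim it stood next below organoid 5 (506 against 527). Organoid 6 was the lowest for Apoe (484), Aqp4 (49.9), Glul (127), Dbi (134), Ttyh1 (136), Vim (225) and S100a16 (5.16), while the lowest for Clu was organoid 3 (87.5). Rlbp1 and Car2 were ordered otherwise. Organoid 3 was the highest for both (185 and 200), organoid 1 was the lowest for Car2 (105) and, with organoid 2, at the bottom for Rlbp1 (100 and 99.9), and organoid 6 stood next below organoid 3 for Car2 (180). The photoreceptor markers summed to 6060 normalized CPM in organoid 1, the lowest, to 12500 in organoid 3, the highest, and to 10000 in organoid 6, next below it; their part in this order was not tested. The map of the 6 D30 organoids shows the values of each gene.

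**Figure D3:**
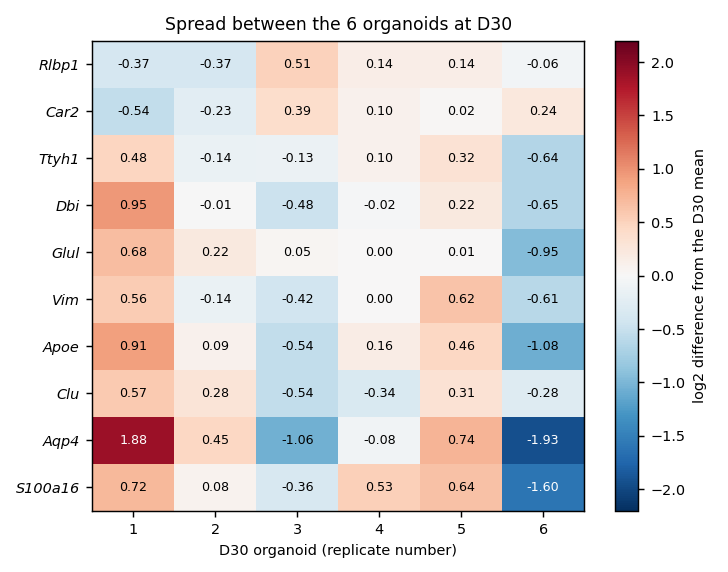
Difference of each D30 organoid (x axis, replicate number) from the mean of the 6 D30 organoids, as log2 normalized CPM (color and printed value), for the 10 genes (y axis). Organoid 1 lies between 0.48 and 1.88 above the mean for 8 genes and below it for Rlbp1 (-0.37) and Car2 (-0.54), and organoid 6 lies between -0.28 and -1.93 for the same 8 genes but at -0.06 and 0.24 for Rlbp1 and Car2.

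To ask whether the genes varied together among organoids of the same age, correlations were computed for all 45 pairs over the 24 organoids after the mean of each day had been subtracted from log2 normalized CPM. In 8 pairs the correlation passed an adjusted p of 0.05 (Benjamini-Hochberg over 45 pairs, two-sided, 100000 permutations within days), all of them positive, and 18 pairs had an unadjusted p below 0.05. With Spearman's rho 4 pairs passed. The pair with the firmest relation across all days was Rlbp1 and Car2, with r = 0.77 and rho = 0.79 (permutation p = 0.00014, adjusted 0.0031, for rho adjusted 0.0013), r = 0.76 without the 2 organoids farthest from the median of Rlbp1, and r = 0.76 without the D30 organoids. Dbi and Ttyh1 had r = 0.75 and rho = 0.72 (permutation p = 0.00058, adjusted 0.0087, for rho adjusted 0.0092), r = 0.72 without the 2 farthest organoids and 0.58 without D30. Apoe and Aqp4 had r = 0.86 and rho = 0.72 (permutation p = 3e-05, adjusted 0.0013, for rho adjusted 0.011), 0.71 without the 2 farthest and 0.62 without D30. Apoe and S100a16 had r = 0.57 and rho = 0.61 (permutation p = 0.001, adjusted 0.011, for rho adjusted 0.024), 0.43 without the 2 farthest and 0.39 without D30.

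The other 4 pairs passed only with Pearson's r. Apoe and Dbi had r = 0.69 and rho = 0.49 (permutation p = 0.0022, adjusted 0.020, for rho adjusted 0.14), which became 0.44 without the 2 farthest organoids and 0.31 without D30. Aqp4 and Dbi had r = 0.65 and rho = 0.32 (permutation p = 0.0055, adjusted 0.031, for rho adjusted 0.31), which became 0.39 and 0.27. Ttyh1 and S100a16 had r = 0.57 and rho = 0.55 (permutation p = 0.005, adjusted 0.031, for rho adjusted 0.074), which became 0.42 and 0.38. Clu and Vim had r = 0.55 and rho = 0.55 (permutation p = 0.005, adjusted 0.031, for rho adjusted 0.074), with 0.59 and 0.50. Without the 6 D30 organoids 3 pairs passed, Rlbp1 and Car2, Rlbp1 and Ttyh1 (r = 0.71, adjusted permutation p = 0.048) and Dbi and Car2 (r = 0.75, adjusted permutation p = 0.048). The other 7 pairs named above had an r between 0.27 and 0.62 without the D30 organoids and did not pass. This set holds fewer organoids, so a lost call alone does not show that a relation rested on D30. With the D30 organoids included, Rlbp1 and Ttyh1 had r = 0.37 and Dbi and Car2 r = 0.16. Among the 6 D30 organoids alone these 2 pairs had r = -0.14 and r = -0.89, opposite in sign to the other days. The values within D30 were not tested.

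**Figure D4:**
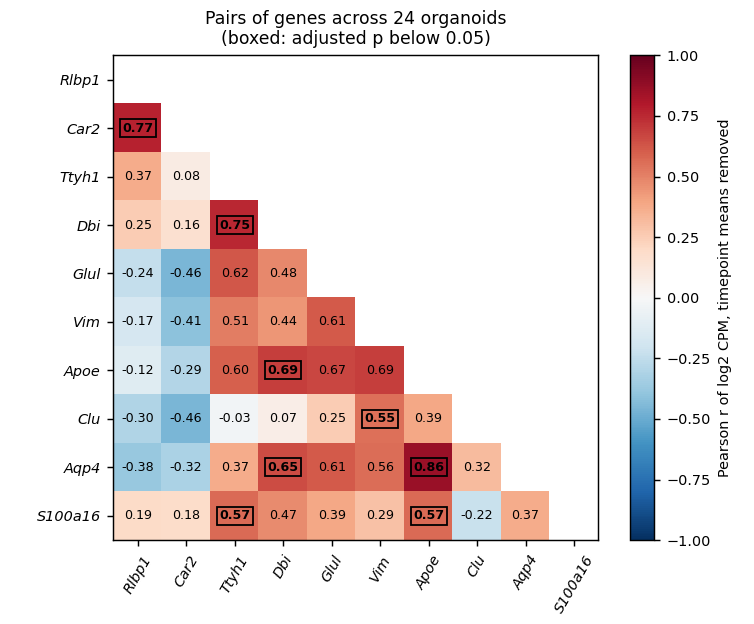
Pearson's r of log2 normalized CPM across 24 organoids for the 45 pairs of genes after removal of the mean of each day (color and printed value); boxes mark an adjusted permutation p below 0.05. The highest values are 0.86 for Apoe and Aqp4 and 0.77 for Rlbp1 and Car2, and the lowest is -0.46 for Car2 with Clu and with Glul, neither of them boxed.

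Markers of several other cells also changed between D20 and D30. Beside all counts of markers given below, 25.1% of annotated genes were called higher at D30 than at D20 and 13% of all features lower. Of 8 astrocyte markers, 6 were abundant enough to be tested and all 6 were higher at D30 than at D20. Among them were Gfap, the glial filament protein (6.76 ± 6.68 and 982 ± 890 normalized CPM, SD, n = 6), and S100b (0.0873 ± 0.127 and 6.06 ± 7.11, log2 fold change 5.96 ± 0.85, adjusted p = 1.449e-06). S100b had no read in 5 of 24 libraries. Over all days, Pax2, a marker of optic nerve astrocytes, had no read in 14 of 24 libraries and at most 29 reads. Gjb6 had none in 17 and at most 41. At D30 all 8 markers had reads in organoids 1, 3, 4 and 6. The summed level of the 8 markers was 468 to 560 normalized CPM at D20, 624 to 764 at D22, 787 to 988 at D25 and 791 to 3750 at D30. Slc1a2 made up most of this sum through D25, with means of 426 at D20, 605 at D22 and 677 at D25. At D30 the means were 982 for Gfap and 882 for Slc1a2. Organoid 1 had the highest sum at D30 (3750) and organoid 6 the lowest (791), the organoids that were also at the ends for Apoe and Aqp4. Müller glia themselves express several of these markers, such as Gja1 and Aldoc, and Gfap when reactive, while photoreceptors and bipolar cells also carry Slc1a2. The part of astrocytes in the levels of the 10 genes was not tested.

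The mesenchyme markers, of which 5 of 6 were higher at D30 than at D20, summed to 9.15 to 29.4 normalized CPM at D20 and 66.4 to 294 at D30, again lowest in organoid 6, while the highest was organoid 5. The pigment epithelium markers summed to 47.5 to 2750 at D30, with organoids 2 and 6 far above the others (2750 and 2540, of which Ttr made up 2630 and 2460). Of 7 tested markers of this list, 2 were higher at D30 than at D20 (Ttr and Mitf), 2 lower (Dct and Lrat) and 3 not called. Rpe65, which defines that epithelium, had no read in 18 of 24 libraries, while Ttr, Mitf, Dct and Lrat had reads in all 24. The choroid plexus and ependyma list, which also holds Ttr, summed to 33.2 to 2660 at D30. Their part in the levels was not tested. The microglia markers were near absent (8 genes, summed level 0 to 1.41 normalized CPM over all days, Trem2 at 0 in all 24 libraries). The oligodendrocyte markers summed to 69.9 to 85.2 at D20 and 27.2 to 107 at D30, with Opalin at 0 in 15 and Mobp in 18 libraries. Endothelial markers summed to 126 to 209 at D30, below the 258 to 343 of D20, a sum made up mostly of Kdr (280 ± 32.3 at D20 and 169 ± 28.1 at D30, SD, n = 6). Of 3 tested endothelial genes 2 were lower and 1 was higher, Pecam1, which went from 0.167 ± 0.264 to 1.37 ± 0.483 (log2 fold change 2.97 ± 0.72, adjusted p = 0.001496), and Cdh5 was at 0 in 19 libraries.

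Of the retinal cells themselves, 7 of 8 photoreceptor markers were higher at D30 than at D20 (summed level 1070 to 2100 normalized CPM at D20 and 6060 to 12500 at D30) and 7 of 7 bipolar markers were (32.3 to 46.6 and 279 to 383). All 8 tested progenitor markers were lower, their sum going from 1170 to 1850 at D20 to 310 to 496 at D30. Of the 6 amacrine markers 2 were higher, with sums of 90.8 to 199 at D20 and 103 to 305 at D30. Of 5 cortex type neuron markers 1 was, Slc17a7, which photoreceptors and bipolar cells also express (log2 fold change 2.55 ± 0.15, adjusted p = 3.278e-14). The amacrine and cortex type counts lie near the 25.1% of annotated genes called higher between these days.

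Among 20 further genes of Müller glia, 11 were higher at D30 than at D20, 3 were lower and 6 were not called, with a median log2 fold change of 1.00. Beside this and the lists below, 25.1% of annotated genes and 13.9% of all features were called higher at D30 than at D20, 13% of all features were called lower, and the median over all features was -0.04. Slc1a3, the glutamate and aspartate transporter of Müller glia, ran from 48.4 to 98.4 normalized CPM at D20 and from 262 to 793 at D30, without overlap (log2 fold change 3.07 ± 0.20, adjusted p = 4.324e-13). Mlc1, a membrane protein of glial endfeet, rose from 0.860 ± 0.809 to 46.3 ± 30.2 normalized CPM (log2 fold change 5.72 ± 0.65, adjusted p = 2.354e-08) and Abca8a, a lipid transporter, from 0.757 ± 0.420 to 25.5 ± 10.3 (5.06 ± 0.42, adjusted p = 4.86e-11). Cp, which encodes the iron oxidase ceruloplasmin, was 256 ± 17.9 at D20 and 359 ± 64.1 at D30 (0.49 ± 0.11, adjusted p = 0.0007085). The 3 genes that fell were Dkk3, a secreted protein (log2 fold change -1.15 ± 0.13, adjusted p = 1.582e-08, from 649 ± 96.4 to 292 ± 18.3 normalized CPM), and 2 regulators that are also active in progenitors, Sox9 (-1.13 ± 0.20, adjusted p = 2.66e-05) and Hes1 (-0.67 ± 0.16, adjusted p = 0.001252); Sox9 and Hes1 were picked out after their values were seen.

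**Figure D5:**
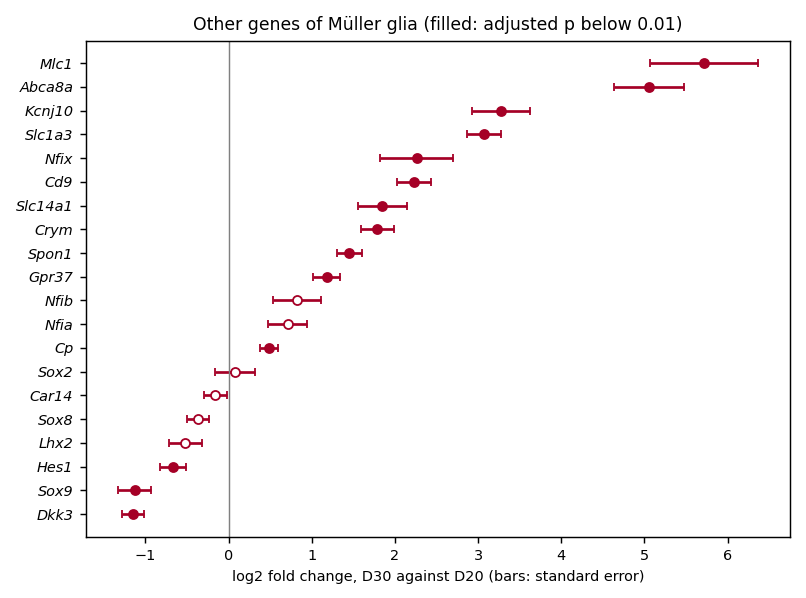
Log2 fold change of D30 against D20 (x axis) for 20 further Müller glia genes (y axis); bars give the standard error of the edgeR fit and filled points had an adjusted p below 0.01. Mlc1 and Abca8a lie highest at 5.72 and 5.06, and Dkk3, Sox9 and Hes1 are the 3 filled points below 0.

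By step, from D20 to D22 none was higher and 2 were lower (0.285% of features were), Dkk3 and Sox8. Sox8 (log2 fold change -0.55 ± 0.13, adjusted p = 0.009398) was named after its value was seen. From D22 to D25 7 were higher (7.33% of annotated genes) and 3 lower (2.19% of features). From D25 to D30 7 were higher (4.55% of annotated genes) and none lower (1.75% of features). Summed, they stood at 1480 to 1790 normalized CPM at D20, 1240 to 1510 at D22, 1280 to 1660 at D25 and 1750 to 3020 at D30.

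Of 10 tested genes of the glutamate and glutamine cycle, partners of Glul, 8 were higher at D30 than at D20 (25.1% of annotated genes were), 1 was lower and 1 was not called. Slc1a2, the glutamate transporter that photoreceptors and bipolar cells also carry, had a level of 426 ± 45.1 normalized CPM at D20 and of 882 ± 203 at D30 (SD, n = 6), which was a rise (log2 fold change 1.05 ± 0.11, adjusted p = 6.611e-09). Slc1a1, a neuronal glutamate transporter, rose early, by a log2 fold change of 1.78 ± 0.20 from D20 to D22 (adjusted p = 4.032e-06).

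Of 15 tested genes of water and potassium balance, 9 were higher at D30 than at D20 (25.1% of annotated genes were) and none was lower. Kcnj10, the potassium channel that lies beside Aqp4 in the endfeet, ran from 3.83 to 12.8 normalized CPM at D20 and from 20.7 to 142 at D30, without overlap (log2 fold change 3.28 ± 0.35, adjusted p = 9.761e-09). The dystrophin complex anchors Aqp4. Of its genes, Dmd rose from D20 to D22 (691 ± 186 to 1470 ± 406 normalized CPM, 1.09 ± 0.17, adjusted p = 0.0001389). Dag1 rose from D25 to D30 (0.47 ± 0.12, adjusted p = 0.009421, close to the threshold), and Dtna was not called between D20 and D30 (0.35 ± 0.21, adjusted p = 0.197). Whether these genes differed in timing was not tested.

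For each of the 10 genes the annotated gene with the most similar levels over the 24 organoids was sought among 10821 well counted genes, with Pearson's r of log2 normalized CPM as the measure of likeness. Both Ttyh1 and S100a16 were most like Slc1a3 (0.968 and 0.964). Apoe was most like Il6st (0.975), Aqp4 like Pygb (0.962), Clu like Cfap54 (0.963), Dbi like Add3 (0.952), Vim like Slc39a1 (0.922) and Glul like Elovl5 (0.908). Rlbp1 was most like Lbhd1 (0.969) and Car2 like Bbs9 (0.987). These values include the shared course over the days. With the mean of each day removed the same pairs had values between 0.700 for S100a16 and 0.900 for Car2.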

How the data were processed

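One RNA library per organoid was made from rRNA-depleted total RNA with a strand-specific kit. The authors trimmed and aligned the reads (HISAT2, GRCm38/mm10), assembled transcripts (StringTie version 1.3.3), and counted reads with HTSeq (version 0.6.1), as the submitters' processing notes and the methods say; whether counting used the strand is not given in the sources used here. The deposited values are these raw counts, whole numbers per feature. The 5 summary lines of each table were left out of library totals.

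From the counts, features with a mean of at least 10 counts after scaling by DESeq2 size factors were kept (46949 features, 16253 of them annotated). They were tested with edgeR (version 4.0.16, R version 4.3.3), TMM normalization and the quasi-likelihood test, in 1 fit of all 24 organoids over 4 timepoints, where p-values were adjusted by Benjamini-Hochberg across the whole table and called below 0.01. The common biological coefficient of variation was 0.385. Standard errors come from the test statistic. Log2 CPM for correlations used a prior count of 2. At 13634846 to 19477108 counted reads, the floors (3 counts) cover counting error only. The scripts were tested on simulated data. Gene symbols, exon lengths and overlaps came from a GENCODE annotation of the same build (46005 of 46603 identifiers had a symbol), promoters from RefSeq.

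The members, gene lists and tests were chosen with earlier results of these data known. All members are named; of each other list, the 3 genes with the highest mean level and the 2 with the largest called log2 fold change of D30 against D20 may be named, and a gene outside this rule is said to be. One gene that the rule covers is counted in its list and not reported here by name. Alternatives were DESeq2 (version 1.42.0), its size factors in edgeR, no low-count filter, filterByExpr, a table of annotated genes, a block for the replicate number, separate fits of each pair of days, another prior count, and each organoid left out. Figures used matplotlib (version 3.10.9).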

Additional observations from a re-analysis of the deposited data

Results flagged for a closer look

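In 40 sets of 6 organoids (10 genes on 4 days), the gap of the highest or lowest organoid to its nearest neighbour was compared with the range of the set by Dixon's rule (critical value 0.625), which chance passes in about 1 set in 20. It was passed in 3 sets. Aqp4 in D22 organoid 6 was at 33.5 normalized CPM with the next organoid at 19.0 (gap over range 0.64). Car2 in D20 organoid 1 was at 18.3 normalized CPM with the next at 34.4 (gap over range 0.64). S100a16 in D22 organoid 4 was at 0 normalized CPM with the next at 0.306 (gap over range 0.71), where the other organoids had 5 or 6 reads each. None of these sets was from D30, the day with the widest ranges of Aqp4 and Apoe. Without D20 organoid 1 the rise of Car2 from D20 to D22 was no longer called.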

How the results depend on the processing

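All 10 genes differed among the days under every alternative that fits the 4 days together (fits of 2 days alone do not give this test), and the counts at D30 against D20, D25 against D20 and D30 against D22 stayed within 1.5 times of those given above. The shorter steps moved. From D20 to D22 the count of genes called was 2 in place of 1 with DESeq2 and without the low-count filter (Car2 and Rlbp1 in both) and without both D30 organoids 1 and 6 (the last chosen after seeing the data, with Car2 higher and Glul lower, -0.37, adjusted p = 0.00776), and 0 to 2 with 1 organoid left out. From D22 to D25 it was 5 in place of 3 with DESeq2 and without the filter, 8 in a fit of these days alone, 7 without D30 organoids 1 and 6, and 3 to 5 with 1 organoid left out. From D25 to D30 it was 5 in place of 8 with filterByExpr and in a fit of these days alone, and 4 to 9 with 1 organoid left out. Over all 46949 features, DESeq2 called 1605 in place of 894 from D20 to D22 and 3629 in place of 2478 from D22 to D25. Without the filter 1014 and 2563 of 109237 were called in these steps. Fits of 2 days alone called 2586 from D22 to D25 and 1568 in place of 1647 from D25 to D30, where filterByExpr called 1560 of 58631. The pairs called numbered 3 in place of 8 without the D30 organoids, an alternative added after seeing the data. The cause of these differences was not tested. With 1 organoid left out, lowest log2 fold changes turned negative for D22 against D20 in Aqp4 (-0.25 to 0.22) and Dbi (-0.04 to 0.19) and for D25 against D20 in Vim (-0.03 to 0.13), none of them called. With annotated genes alone the median of all genes shifted by -0.14 for D30 against D22, and by less than 0.1 in the other comparisons; the scaling by DESeq2 size factors shifted it by at most 0.07.

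Deviations from the day means correlated at 0.013 on average between organoids of the same replicate number (36 pairs, -0.083 to 0.214). Between other organoids they correlated at -0.003 on average (180 pairs, -0.285 to 0.195). Of 24 organoids, 8 were closest to one of their own number. Whether the number marks more than a name was not tested. With the replicate number as a block, 2 genes were called from D20 to D22 (Car2 and Rlbp1), 4 from D22 to D25, 5 from D25 to D30 (Apoe, Clu, Aqp4, Glul and S100a16) and 9 from D20 to D30. Over all 46949 features the block fit called 823, 2221, 1492 and 12254 in these comparisons, in place of 894, 2478, 1647 and 12592.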

Other observations

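Genes of lipoprotein handling, the partners of Apoe and Clu, did not move one way. Of 11 tested, 5 were higher at D30 than at D20, 3 were lower and 3 were not called, with a median log2 fold change of 0.54, where 25.1% of annotated genes were called higher and 13% of all features lower. Abca1, which loads lipid onto apolipoproteins, rose early, its level being 44.5 ± 7.80 normalized CPM at D20 and 98.4 ± 28.9 at D22 (SD, n = 6; log2 fold change 1.14 ± 0.16, adjusted p = 3.689e-05), before Apoe was called. Lcat and Pltp, which remodel lipoproteins, were low and rose to 6.02 ± 3.70 and 5.74 ± 2.73 at D30 (log2 fold change against D20 4.38 ± 0.65 and 2.79 ± 0.49). The receptors Vldlr (0.33 ± 0.10, adjusted p = 0.01032) and Lrp1 (0.22 ± 0.19, adjusted p = 0.3905) were not called. Of 12 tested genes of retinoid binding and conversion, the partners of Rlbp1, 4 were higher and 4 lower, with a median log2 fold change of -0.28. Crabp2, which carries retinoic acid, fell from 172 ± 32.8 to 9.26 ± 2.00 (-4.21 ± 0.29, adjusted p = 8.953e-13), Rdh11, a retinol dehydrogenase, was not called (-0.32 ± 0.11, adjusted p = 0.02034), and Ttr, the thyroxine and retinol-binding protein carrier, rose to 987 ± 1220, with an SD above its mean.

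Among paralogs of the 10 genes, 13 of 22 tested were higher at D30 than at D20 (25.1% of annotated genes were) and 4 were lower. Ttyh2, unlike Ttyh1, rose from D20 to D22 (0.71 ± 0.15, adjusted p = 0.003221) and was lower at D30 than at D25 (-0.65 ± 0.15, adjusted p = 0.00431), while Acbd5, a relative of Dbi, was higher at D30 than at D20 (0.64 ± 0.09, adjusted p = 1.655e-06). S100a4 was near 0 through D25 and reached 3.95 ± 4.77 at D30 (7.01 ± 1.15 against D20, adjusted p = 1.18e-05). Whether paralogs differed from their members was not tested.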
